A study of Mus musculus with 9 samples.

Results

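Nuclear genes for the subunits of the mitochondrial respiratory chain and ATP synthase were followed through macrophages of 3 labelled conditions. The genes were taken by name, as the rows of the count table whose mouse symbol begins with Nduf, Uqcr, Atp5 or Cox followed by 4 to 8, or is Sdha, Sdhb, Sdhc or Sdhd. This gave 93 of 22001 genes. Of these, 84 encode structural subunits: 36 of complex I, 4 of complex II, 8 of complex III, 20 of complex IV (tissue isoforms included) and 16 of complex V. The other 9 were the 8 Ndufaf assembly factors of complex I and Atp5s, a coupling factor of the ATP synthase. Ndufa4 and Ndufa4l2 were counted with complex IV, to which the Ndufa4 protein belongs despite its name, and Cox7a2l, which joins complexes III and IV into supercomplexes, was counted with complex IV too. The rule used no measured value.

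RNA sequencing was done on bone marrow-derived macrophages of C57BL6 mice, phagocytes grown in culture from marrow precursors, after 6 h in 3 conditions with 3 libraries each. The conditions were PBS alone (untreated), Pam3CSK4 at 100 µg/ml, and Pam3CSK4 at 100 µg/ml plus 3SL at 100 µl/ml. Pam3CSK4, a synthetic lipopeptide, is a ligand of Toll-like receptors. For the third group the sample titles and treatment tags write Pamc4 where the descriptions write Pam3CSK4, and the descriptions are followed here. The series title gives 3SL as 3'-sialyllactose, an oligosaccharide of milk, and its amount is stated as a volume only. No group carries a genetic change according to the labels, and the age of the mice is not given in them.

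The respiratory chain passes electrons from NADH (complex I) or succinate (complex II) through ubiquinone to complex III, from there by cytochrome c to complex IV, and so to oxygen. Complexes I, III and IV pump protons, and complex V, the ATP synthase, uses the gradient to make ATP. A few subunits are encoded in mitochondrial DNA and the rest in the nucleus, and each complex needs its own assembly factors. In macrophages, inflammatory activation is known to shift energy metabolism away from the respiratory chain and towards glycolysis, and complexes I and II are known as sources of mitochondrial oxygen radicals.

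Inflammatory genes went against the labels, so the groups are named here by label only: untreated-labelled, Pam3CSK4-labelled and 3SL-labelled. Il1b stood at 9653 to 10550 CPM (each library's counts brought to one total, as described with the levels below) in the untreated-labelled libraries, 4.30 to 7.36 CPM in the Pam3CSK4-labelled and 7489 to 8554 CPM in the 3SL-labelled. Every direction given for a comparison with the Pam3CSK4-labelled libraries rests on those labels. These libraries also carry the letter D where the others carry A, B or C. What the letter marks is not stated, and treatment and letter cannot be told apart. The libraries held 7472482 to 43980309 counts. All 8 macrophage markers were present in every group, with a summed level of 23991 to 24503 CPM in the untreated-labelled, 16135 to 16587 in the Pam3CSK4-labelled and 23171 to 23799 in the 3SL-labelled libraries. The 6 neutrophil and progenitor markers summed to 35.7 to 38.0, 67.4 to 72.5 and 35.9 to 38.8 CPM in the same order, the 4 stromal markers to 11.8 to 12.9, 1.55 to 2.48 and 7.02 to 9.35, and the 4 dendritic cell markers to 3.71 to 4.74, 0.959 to 2.29 and 2.13 to 2.81. The 6 lymphocyte markers summed to at most 1.64 CPM in any library. The 4 erythroid and mast cell markers summed to 2.65 to 3.86, 4.40 to 5.34 and 1.96 to 3.51 CPM in that order, and no marker was at 0 in all libraries. The 8 macrophage markers did not move together. By the main test described below, 6 were lower and 2 higher in the Pam3CSK4-labelled than in the untreated-labelled libraries. Among all tested genes 35.9% were lower and 39% higher. The markers' log2 differences ran from -3.41 for Cd14 to 0.99 for Mertk. The part of these marker differences in the results below was not tested. In bulk RNA, fewer cells of a type and less RNA per cell cannot be told apart.

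Respiratory chain genes share promoter motifs for the factors NRF1, ETS family members such as GABP, and YY1, and RefSeq promoter windows on GRCm38.p6 were available for 74 of the 93 members. The windows run from 250 bases before to 50 after the start, and were searched on both strands for GCGCATGC (the NRF1 core), CCGGAAG (the ETS core) and AAGATGGC (the YY1 core). The NRF1 core was in 16.2% of the 74 members and 4.11% of the 16492 genes of the table with a window, the ETS core in 24.3% and 13.4%, and the YY1 core in 13.5% and 3.64%. At least 1 of the 3 was in 44.6% of members and 19.3% of all. The YY1 core was in 7 of 32 complex I subunits and in none of 14 complex IV, 5 complex III or 3 complex II subunits with a window. Such matches are descriptions of the letters, not sites of binding. Of the members later called higher in the Pam3CSK4-labelled libraries 7 of 18 with a window held a motif, of those called lower 9 of 22, and of those not called 17 of 31. The windows below show 4 members that were higher in the Pam3CSK4-labelled libraries and hold motifs (Ndufs8, a core subunit of complex I, with the ETS core; Ndufaf4, an assembly factor, with NRF1 cores; Sdhb, the iron-sulfur subunit of complex II, with both; Atp5g2, a c subunit gene, with overlapping NRF1 cores on both strands) beside Cox5a, the subunit with the largest fall with TMM, whose window holds none. These windows were picked by call and motif together, so they do not show how motifs go with calls. By the counts above, 9 of 22 members called lower held a motif too. The windows are 280 bases each, from 250 before to 30 after the start, and capitals mark the motifs.
Ndufs8, chr19:3912745-3913024, strand minus: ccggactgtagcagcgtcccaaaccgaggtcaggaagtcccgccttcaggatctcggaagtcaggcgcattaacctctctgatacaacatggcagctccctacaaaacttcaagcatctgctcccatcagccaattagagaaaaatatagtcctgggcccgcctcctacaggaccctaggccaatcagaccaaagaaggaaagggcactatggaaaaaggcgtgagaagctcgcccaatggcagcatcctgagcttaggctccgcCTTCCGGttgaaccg
Ndufaf4, chr4:24897833-24898112, strand plus: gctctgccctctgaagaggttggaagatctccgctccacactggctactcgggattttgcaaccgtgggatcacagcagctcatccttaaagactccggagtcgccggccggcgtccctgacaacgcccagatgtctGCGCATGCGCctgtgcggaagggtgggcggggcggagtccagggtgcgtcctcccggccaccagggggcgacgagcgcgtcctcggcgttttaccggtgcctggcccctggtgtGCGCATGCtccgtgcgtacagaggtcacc
Sdhb, chr4:140961021-140961300, strand plus: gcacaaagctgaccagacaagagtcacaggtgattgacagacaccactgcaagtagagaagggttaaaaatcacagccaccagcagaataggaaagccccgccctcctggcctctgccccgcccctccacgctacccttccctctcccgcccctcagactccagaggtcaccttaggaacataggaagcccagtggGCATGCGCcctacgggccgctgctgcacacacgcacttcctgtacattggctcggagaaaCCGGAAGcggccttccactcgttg
Atp5g2, chr15:102671018-102671297, strand minus: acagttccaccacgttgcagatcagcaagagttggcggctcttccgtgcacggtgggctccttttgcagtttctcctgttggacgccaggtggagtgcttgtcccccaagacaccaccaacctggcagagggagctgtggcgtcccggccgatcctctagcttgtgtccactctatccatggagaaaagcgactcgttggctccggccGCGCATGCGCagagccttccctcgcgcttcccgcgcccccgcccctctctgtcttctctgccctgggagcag
Cox5a, chr9:57520982-57521261, strand plus: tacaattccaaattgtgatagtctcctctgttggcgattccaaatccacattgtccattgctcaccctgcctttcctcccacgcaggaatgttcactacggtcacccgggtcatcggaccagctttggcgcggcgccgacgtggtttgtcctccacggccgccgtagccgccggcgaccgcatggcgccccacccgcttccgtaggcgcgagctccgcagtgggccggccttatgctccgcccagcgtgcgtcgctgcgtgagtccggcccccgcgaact

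Levels per kilobase of exon set the members apart by complex. CPM is computed here on library sizes scaled by TMM factors, which take account of differences in RNA composition, and is divided by exon length where genes are compared with each other. In the untreated-labelled libraries Atp5b, the catalytic beta subunit of ATP synthase, was the highest member at 433 ± 11.3 CPM per kb (SD, n = 3), followed by Cox4i1 of complex IV at 381 ± 19.0 (SD, n = 3). Cox6b1 (265 ± 6.33), Cox5a (265 ± 12.4) and Atp5g3 (262 ± 12.7 CPM per kb, SD, n = 3 each) came next and did not differ beyond their spread. The median over tested members was 147 CPM per kb for complex IV, 92.2 for complex V, 80.9 for complex II, 75.3 for complex III, 33.9 for complex I and 7.0 for the assembly factors with Atp5s. Among assembly factors the levels ran from 1.94 ± 0.28 CPM per kb for Ndufaf7 to 14.6 ± 1.75 for Ndufaf8 (SD, n = 3). The exon lengths join all exons of a gene's basic annotation, so a gene with a long, rarely used exon, as may hold for Atp5g1 with 4912 bases, is placed too low. The tissue isoforms of complex IV were nearly silent: Cox7b2 and Cox8c had no count, Ndufa4l2 1, Cox8b 2, Cox4i2 13, Cox6b2 48 and Cox6a2 103 counts over all 9 libraries. These 7 members were too low to test, which left 86 tested members among 11469 tested genes. A count of 0 allows up to 3 counts in a library, or 0.0682 to 0.402 CPM, from counting error alone.

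**Figure D1:**
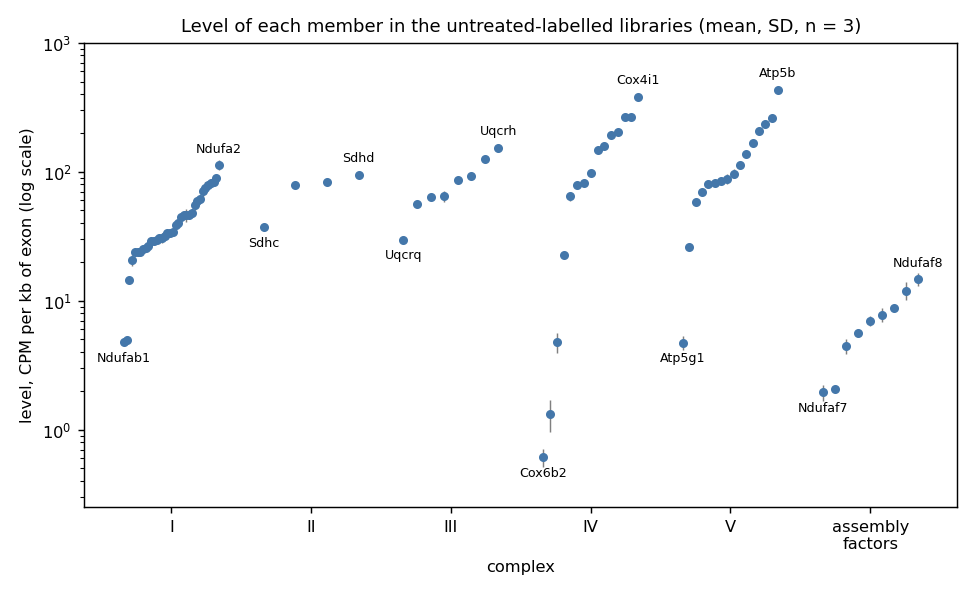
Level of each member in the untreated-labelled libraries as CPM per kb of exon (log axis), by complex, with members sorted by level within a complex; points are means and bars SDs of 3 libraries, and Atp5s is drawn with the assembly factors. The 88 members at 0.5 CPM per kb or more are drawn and 5 lower complex IV isoforms are not; Atp5b and Cox4i1 are highest and the assembly factors lie below most subunits.

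Between the Pam3CSK4-labelled and untreated-labelled libraries, 20 of 86 members were higher and 31 lower by edgeR's quasi-likelihood test with TMM scaling (adjusted p under 0.05). The background was 39% of all tested genes higher and 35.9% lower, so the share of members lower, 36%, was near that of all genes and the share higher was 23.3%. The answer for most members turned on the scaling. With library size alone, 67 members were higher and 1 lower, against 60% and 20.8% of all genes, since this scaling moves every gene by 0.31 on the log2 scale. With TMM scaling and an offset for gene length and GC content, 41 were higher and 9 lower, against 40.3% and 35.7% of all genes. The median log2 difference of the members was -0.068 with TMM, 0.25 with library size and 0.12 with the length and GC offset, beside 0.027, 0.34 and 0.042 for all genes. Members are short, with a median exon length of 1034 bases against 3338 for all tested genes, and 76 of the 86 are among the shortest genes tested, with at most 2096 bases. Without the untreated-labelled library B2, the deepest, 18 members were lower with TMM in place of 31.

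The 20 members higher with TMM were also higher with library size, which moves every member upwards, and with the length and GC offset, which raises the median of the members. They were 12 complex I subunits, Sdha and Sdhb of complex II, Atp5c1 and Atp5g2 of complex V, the assembly factors Ndufaf2, Ndufaf4 and Ndufaf7, and Atp5s. Of the 31 lower with TMM, Cox5a alone stayed lower with library size, 14 were not called and 16 were higher. With the length and GC offset 9 of the 31 stayed lower, among them Cox5a, Cox7a2l, Atp5b and Ndufv3, and 3 were higher. The members' differences were small: their interquartile range was 0.26 on the log2 scale against 0.91 for all tested genes. With TMM, Ndufaf7 was the 1 member called with at least a 2-fold difference, against 24% of all genes. With TMM, Ndufaf7 and Atp5s were the members called past 1.5-fold, and no structural subunit was, against 4608 of all 11469 tested genes. With library size, which moves every gene upwards, Ndufaf2, Ndufaf4 and the subunits Ndufb10, Ndufs8 and Ndufa12 passed it too. The share of all genes past this fold with library size was not counted. Whether the 3 libraries of a group are separate cultures or mice is not stated, so a p-value speaks only of how these libraries spread, which may be technical variation.

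**Figure D2:**
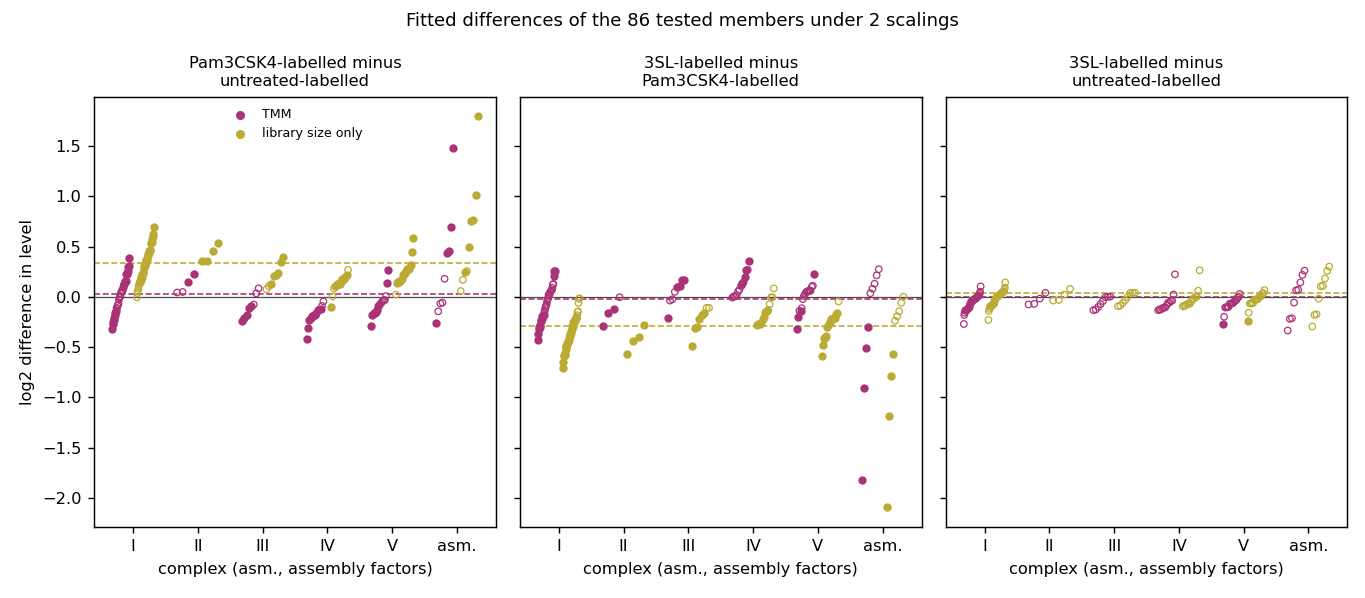
Fitted log2 difference of each of the 86 tested members by complex (assembly factors with Atp5s) in the 3 comparisons, with TMM scaling (purple) and library size alone (yellow); filled points have an adjusted p under 0.05 and dashed lines are the medians of all tested genes. The scalings differ by 0.31 in the left panel, which moves most subunits from below to above 0, and by 0.038 in the right panel.

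Shares of the subunit counts do not depend on any scaling, and they gave an order of the complexes. In the Pam3CSK4-labelled libraries complex I took 25.1%, 25.3% and 25.2% of all subunit counts, against 23.7%, 23.5% and 23.2% in the untreated-labelled and 23.8%, 24.0% and 23.5% in the 3SL-labelled libraries. Complex II took 9.42% ± 0.0381 in the Pam3CSK4-labelled against 8.08% ± 0.149 in the untreated-labelled libraries (SD, n = 3 each). Both complexes were higher in each Pam3CSK4-labelled library than in each other library. Complex IV took 19.0%, 18.9% and 18.8% in the Pam3CSK4-labelled, 20.1%, 20.7% and 20.6% in the untreated-labelled and 19.9%, 20.3% and 20.1% in the 3SL-labelled libraries. Complex V took 37.8% ± 0.0687 against 39.2% ± 0.213 (SD, n = 3 each), again without overlap. Complex III, at 8.70% ± 0.0332 against 8.79% ± 0.0733 (SD, n = 3 each), overlapped. The shares are parts of the same whole, so a rise of some complexes lowers the shares of others. With TMM, complex V summed to a mean of 2468 CPM in the Pam3CSK4-labelled and 2703 CPM in the untreated-labelled libraries. Atp5b alone gave 680 and 830 CPM of these, so much of the difference of complex V lay in 1 gene. With 3 libraries against 3, an exact two-sided permutation test cannot go below 0.10, so no test is given for the shares. Summed over all subunits, the level was 6513 to 6537 CPM in the Pam3CSK4-labelled and 6661 to 7100 CPM in the untreated-labelled libraries with TMM. With library size it was 7442 to 7514 and 6162 to 6501 CPM, so that the order of the groups turned with the scaling.

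**Figure D3:**
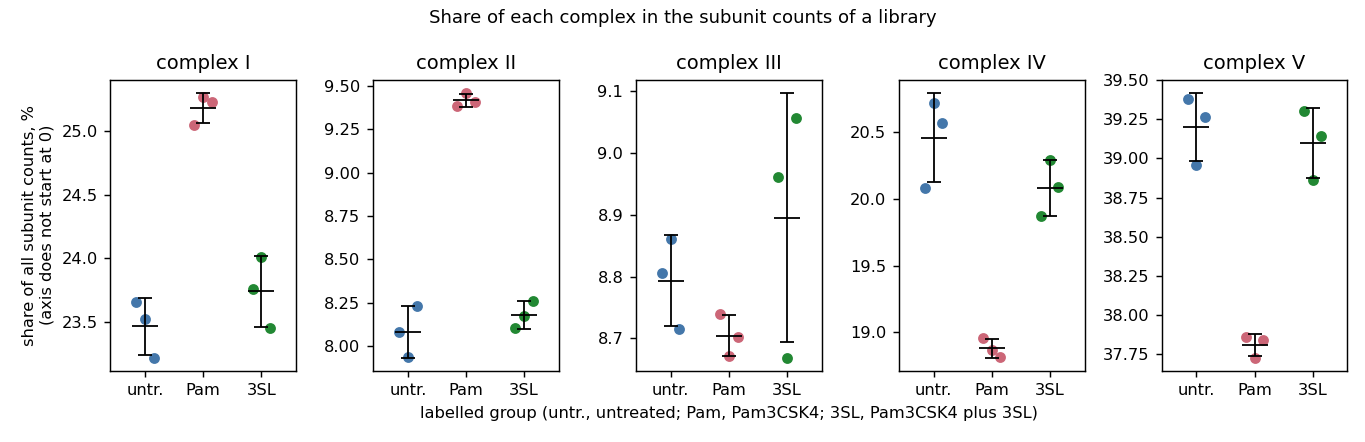
Share of each complex in all structural subunit counts of a library, in percent, for the 3 labelled groups; points are libraries, black marks the mean and SD, and each axis has its own range that does not start at 0. The Pam3CSK4-labelled libraries are above the others for complexes I and II and below them for complexes IV and V.

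Complex I, the NADH dehydrogenase, had subunits called in both directions with TMM: 12 of its 36 subunits rose and 8 fell in the Pam3CSK4-labelled group (median 0.018), beside 39% and 35.9% of all genes. The offset for length and GC gave 21 higher and 3 lower, against 40.3% and 35.7% of all genes. With library size 29 were higher and none lower, against 60% and 20.8% of all genes. At an unadjusted p under 0.05 the TMM counts were also 12 and 8, against 4564 and 4194 of all 11469 tested genes. Of the 3 core subunits of the NADH-binding module 2 were higher. Ndufs8 (chromosome 19, 3908863 to 3912774 on GRCm38), which carries iron-sulfur clusters next to the quinone site, stood at 38.5, 37.7 and 39.6 CPM in the Pam3CSK4-labelled and 31.26, 31.44 and 29.98 CPM in the untreated-labelled libraries. Its 3SL-labelled libraries, at 30.3, 33.1 and 29.4 CPM, overlapped the untreated-labelled ones and were below all Pam3CSK4-labelled ones. Its log2 difference came to 0.31 ± 0.0634 (SE; adjusted p = 7.87e-05) with TMM and 0.63 ± 0.0642 (SE; adjusted p = 9.25e-10) with library size. Of the NADH module, Ndufs1 was higher by 0.16 ± 0.0414 (SE; adjusted p = 0.00134) with TMM, and Ndufv1, the flavoprotein, had a difference of 0.0001 (adjusted p = 0.999) with TMM and 0.31 (adjusted p = 2.58e-05) with library size.

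Among the accessory subunits of complex I, Ndufb10 had the largest rise of any structural subunit. Ndufb10 (chromosome 17, 24722060 to 24724478), a small subunit of the proton-pumping arm, stood at 56.8, 55.9 and 56.5 CPM in the Pam3CSK4-labelled and at 44.6, 42.9 and 41.6 CPM in the untreated-labelled libraries. The 3SL-labelled libraries, at 47.6, 44.4 and 39.3 CPM, spanned the untreated-labelled ones and were all below the Pam3CSK4-labelled. On the log2 scale the difference was 0.39 ± 0.059 (SE; adjusted p = 1.39e-06) with TMM and 0.70 ± 0.0602 (SE; adjusted p = 2.46e-11) with library size. Of the 10 Ndufb subunits, all of that arm, 3 were higher and 1 lower with TMM, and 8 were higher with library size. The shares of all tested genes were 39% and 35.9% with TMM, and 60% higher with library size. Ndufv3, a small subunit of the NADH module, was lowest with TMM at 37.8, 39.4 and 38.6 against 47.1, 48.1 and 49.8 CPM, a log2 difference of -0.32 ± 0.0564 (SE; adjusted p = 1.38e-05). With library size that difference was -0.0045 (adjusted p = 0.946). The remaining complex I subunits lay between these extremes. Ndufs3 (0.26, adjusted p = 0.00128) and Ndufs7 (0.24, adjusted p = 0.00222), core subunits of the ubiquinone module, were higher with TMM.

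Complex II, succinate dehydrogenase, had 2 of 4 subunits higher and none lower with TMM (median 0.098), and 4 of 4 higher with library size. Among all tested genes 39% were higher and 35.9% lower with TMM, and 60% were higher with library size. Sdha (chromosome 13, 74322254 to 74350280), the flavoprotein that oxidises succinate, stood at 258, 276 and 259 CPM in the Pam3CSK4-labelled, 232, 223 and 226 CPM in the untreated-labelled and 220, 215 and 213 CPM in the 3SL-labelled libraries. All Pam3CSK4-labelled libraries were above all others. The log2 difference was 0.22 ± 0.0363 (SE; adjusted p = 3.49e-06) with TMM and 0.54 ± 0.0367 (SE; adjusted p = 1.78e-13) with library size. Sdhb, the iron-sulfur subunit, was higher by 0.15 ± 0.0442 (SE; adjusted p = 0.00416) with TMM. The membrane anchors Sdhc (0.044, adjusted p = 0.394) and Sdhd (0.049, adjusted p = 0.299) passed with library size (0.36 each) and not with TMM.

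In complex III, the cytochrome bc1 complex, 5 of 8 subunits were lower and none higher with TMM (median -0.10), while 6 were higher and none lower with library size (median 0.21) and 3 were higher and 2 lower with the length and GC offset. Among all tested genes, 39% were higher and 35.9% lower with TMM, and 60% and 20.8% with library size. With the offset the shares were 40.3% and 35.7%. At an unadjusted p under 0.05 no complex III subunit was higher with TMM, against 4564 of all 11469 tested genes. The 5 lower with TMM were both core proteins Uqcrc1 and Uqcrc2, the Rieske iron-sulfur protein Uqcrfs1 and the small subunits Uqcrb and Uqcrq. Uqcrb, which lies near a quinone site, stood at 40.3, 43.1 and 42.8 CPM in the Pam3CSK4-labelled and 49.9, 49.4 and 49.6 CPM in the untreated-labelled libraries with TMM. With library size it stood at 46.0, 49.2 and 49.2 against 46.2, 45.3 and 45.9 CPM, and the groups overlapped. Its log2 difference was -0.24 ± 0.0554 (SE; adjusted p = 0.00042) with TMM and 0.077 (adjusted p = 0.211) with library size. Uqcrfs1 was lower by TMM (-0.21, adjusted p = 0.000864) and with the length and GC offset (-0.10, adjusted p = 0.0445). Uqcrc1 was lower by 0.092 with TMM (adjusted p = 0.0332) but was not called without B2 (-0.061), D1 (-0.091), D2 (-0.096) or D3 (-0.086), and was higher with library size (0.22). Uqcr10, a small subunit, was the highest at 0.086 (adjusted p = 0.143).

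Complex IV, cytochrome c oxidase, was the complex furthest down, with 10 of 13 tested subunits lower and none higher with TMM (median -0.18). None was higher at an unadjusted p under 0.05 either, against 4564 of all 11469 tested genes. With library size 8 were higher and 1 lower (median 0.13), and with the length and GC offset 3 were higher and 2 lower (median 0.021). The shares of all tested genes were 39% higher and 35.9% lower with TMM, and 60% and 20.8% with library size. With the offset they were 40.3% and 35.7%. The share of complex IV higher with library size was near that of all genes. Cox5a (chromosome 9, 57521274 to 57532426), a matrix-facing subunit, had the largest fall of any member with TMM and with library size, though not with the length and GC offset, where Ndufv3 (-0.29) and Atp5b (-0.26) were lower. It stood at 129, 127 and 129 CPM in the Pam3CSK4-labelled, 164, 180 and 169 CPM in the untreated-labelled and 162, 171 and 161 CPM in the 3SL-labelled libraries. With library size the values were 147, 146 and 148 against 152, 164 and 157 CPM, still without overlap. The log2 difference was -0.42 ± 0.0409 (SE; adjusted p = 5.03e-10) with TMM, -0.11 ± 0.0401 (SE; adjusted p = 0.0187) with library size and -0.11 (adjusted p = 0.00968) with the length and GC offset. Counts of Sdha per count of Cox5a were 1.999, 2.168 and 2.005 in the Pam3CSK4-labelled and 1.41, 1.24 and 1.33 in the untreated-labelled libraries. Ndufb10 per Cox5a was 0.441, 0.439 and 0.438 against 0.272, 0.239 and 0.246. Both pairs of genes were picked after their values were seen.

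Cox4i1, the ubiquitous isoform of the largest nuclear subunit, shows how a direction can turn. It stood at 260, 262 and 264 CPM in the Pam3CSK4-labelled and 287, 308 and 280 CPM in the untreated-labelled libraries with TMM. With library size it stood at 297, 299 and 304 against 266, 282 and 259 CPM. Neither pair of groups overlapped, and the log2 difference was -0.16 ± 0.0401 (SE; adjusted p = 0.000842) and 0.15 ± 0.0388 (SE; adjusted p = 0.000808). With the length and GC offset it was 0.021 (adjusted p = 0.539). Exons of Cox4i1 overlap Emc8 on the other strand. Cox7a2l, the supercomplex factor, was lower by 0.31 ± 0.0486 (SE; adjusted p = 2.4e-06) with TMM and by 0.19 (adjusted p = 0.000395) with the length and GC offset, and was at 0.0046 (adjusted p = 0.935) with library size. Cox6a1, Cox7a2 and Cox8a, isoforms found in most tissues, were lower with TMM (-0.19, -0.21 and -0.13) and higher with library size (0.12, 0.11 and 0.18). Without B2 the difference of Cox8a was -0.10 and not called.

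Ndufa4, a subunit of complex IV, has a paralogue outside the name rule, AA467197, which encodes a small Ndufa4-like mitochondrial protein and hosts the microRNA gene Mir147. Ndufa4 stood at 95.1, 93.1 and 91.9 CPM in the Pam3CSK4-labelled and 96.1, 105 and 94.6 CPM in the untreated-labelled libraries, and the groups overlapped (log2 difference -0.090, adjusted p = 0.0747). AA467197 stood at 1.76, 1.38 and 2.21 CPM in the Pam3CSK4-labelled, 68.8, 71.1 and 60.3 CPM in the untreated-labelled and 40.3, 45.0 and 43.9 CPM in the 3SL-labelled libraries. All 3 groups were apart under both scalings. It was 38.5-fold lower in the Pam3CSK4-labelled than in the untreated-labelled libraries (log2 difference -5.27 ± 0.116, SE; adjusted p = 1.25e-24) with TMM, and -4.96 on the log2 scale with library size. Of the reads per length of the pair, AA467197 gave 31.4% ± 1.25 in the untreated-labelled, 1.28% ± 0.309 in the Pam3CSK4-labelled and 23.7% ± 1.55 in the 3SL-labelled libraries (SD, n = 3 each). How reads shared by the 2 genes were counted is not given in the sources used here.

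In complex V, the ATP synthase, 2 of 16 subunits were higher and 7 lower with TMM (median -0.077, and -0.047 without B2), and 14 were higher and none lower with library size (median 0.24). Among all tested genes, 39% were higher and 35.9% lower with TMM, and 60% and 20.8% with library size. Of the 5 subunits of the F1 head, 3 were lower and 1 higher with TMM, and 4 were higher with library size. Atp5b (chromosome 10, 128083273 to 128090391), the catalytic beta subunit, stood at 672, 675 and 692 CPM in the Pam3CSK4-labelled and 834, 850 and 807 CPM in the untreated-labelled libraries. The 3SL-labelled libraries, at 791, 811 and 787 CPM, were all above the Pam3CSK4-labelled and overlapped the untreated-labelled. The log2 difference was -0.29 ± 0.0299 (SE; adjusted p = 1.43e-09) with TMM, -0.26 (adjusted p = 7.1e-10) with the length and GC offset and 0.022 (adjusted p = 0.483) with library size. Atp5a1, the alpha subunit, was lower by 0.089 with TMM (adjusted p = 0.00776) and higher by 0.22 with library size (adjusted p = 7.95e-08), and its exons overlap Haus1 on the other strand. Atp5c1, the gamma subunit that turns inside the head, was higher with TMM (0.14 ± 0.0395, SE; adjusted p = 0.003). Atp5c1 counts per Atp5b count were 0.262, 0.254 and 0.239 in the Pam3CSK4-labelled and 0.189, 0.186 and 0.185 in the untreated-labelled libraries. This pair too was picked after its values were seen. Its genes had the highest and the lowest difference of the F1 head with TMM, so the gap between the groups follows from the choice.

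The c subunit, which forms the rotating ring of the ATP synthase, is encoded by the genes Atp5g1, Atp5g2 and Atp5g3, whose mature proteins are identical. Atp5g3 gave most of the reads per length, 89.5% ± 0.328 in the untreated-labelled and 86.7% ± 0.215 in the Pam3CSK4-labelled libraries (SD, n = 3 each). Atp5g2 gave 8.62%, 8.79% and 9.19% in the untreated-labelled, 11.6%, 11.4% and 11.7% in the Pam3CSK4-labelled and 9.35%, 8.56% and 9.66% in the 3SL-labelled libraries. The Pam3CSK4-labelled libraries were above all others. Atp5g2 was higher by 0.27 ± 0.0729 (SE; adjusted p = 0.00165) with TMM and 0.58 (adjusted p = 4.48e-08) with library size. Atp5g3 was lower by 0.16 with TMM (adjusted p = 0.00133) and higher by 0.15 with library size (adjusted p = 0.0016), and Atp5g1 was at -0.059 (adjusted p = 0.556) with TMM. Of the peripheral stalk 2 of 4 subunits, and of the small membrane subunits 1 of 4, were lower with TMM, and none was higher. Their direction turned with the scaling: 4 and 3 were higher with library size, 1 and 4 with the length and GC offset, and none was lower. The shares of all tested genes were 39% higher and 35.9% lower with TMM, and 60% and 20.8% with library size. With the offset they were 40.3% and 35.7%, and nothing particular to these few subunits is read from the counts.

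**Figure D4:**
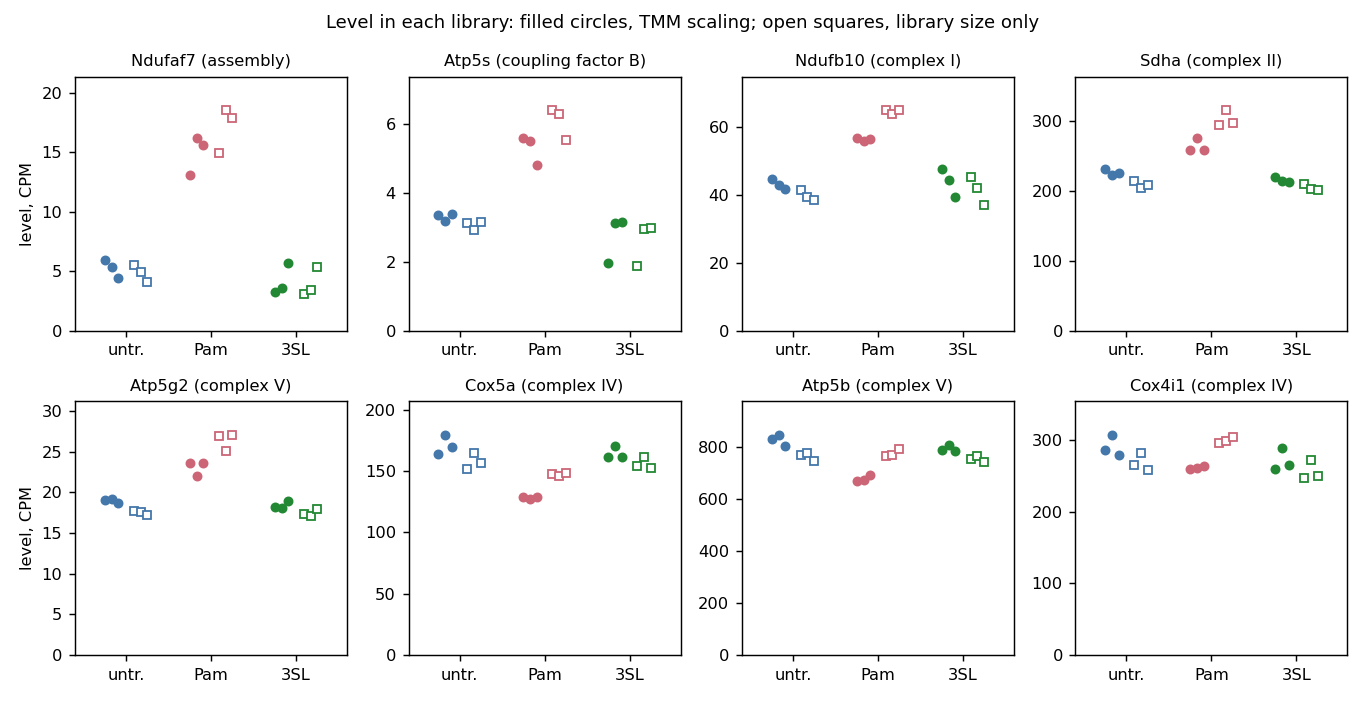
Level in CPM of 8 members in each library (axes start at 0) for the untreated-labelled (blue), Pam3CSK4-labelled (red) and 3SL-labelled (green) groups, with TMM scaling (filled circles) and library size alone (open squares). Ndufaf7, Atp5s, Ndufb10, Sdha and Atp5g2 are higher in the Pam3CSK4-labelled libraries with both scalings, Cox5a is lower with both, and Cox4i1 is lower with TMM and higher with library size.

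The assembly factors held the largest differences. Ndufaf7 (chromosome 17, 78937136 to 78948052), a methyltransferase that acts early in complex I assembly, stood at 13.1, 16.2 and 15.6 CPM in the Pam3CSK4-labelled, 5.95, 5.39 and 4.45 CPM in the untreated-labelled and 3.23, 3.62 and 5.69 CPM in the 3SL-labelled libraries. It was 2.80-fold higher than in the untreated-labelled libraries (log2 difference 1.49 ± 0.131, SE; adjusted p = 5.83e-11) with TMM, and by 1.80 on the log2 scale with library size. Atp5s, coupling factor B, stood at 5.60, 5.51 and 4.81 CPM against 3.35, 3.18 and 3.39 CPM, a log2 difference of 0.70 ± 0.167 (SE; adjusted p = 0.000499). Ndufaf4, which acts early in the assembly of complex I, was higher by 0.44 ± 0.072 (SE; adjusted p = 4.25e-06). Ndufaf2, a paralogue of Ndufa12 that is replaced by it late in assembly, was higher by 0.46 ± 0.134 (SE; adjusted p = 0.00338), but its groups overlapped with TMM. Exons of Ndufaf2 overlap the noncoding RNA gene B230220B15Rik on the other strand by up to 1955 bases. Ndufa12 itself was higher by 0.30 ± 0.0815 (SE; adjusted p = 0.00198). Ndufaf8 was lower with TMM (-0.26, adjusted p = 0.043) and not called with library size, with DESeq2, or without B2, D1 or D2 (-0.11, -0.23 and -0.25); its groups overlapped. Of all 8 Ndufaf factors 3 were higher and 1 lower with TMM, and 5 were higher with library size. The shares of all tested genes were 39% and 35.9% with TMM, and 60% higher with library size. The shares of Ndufaf factors higher were near these.

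Between the 3SL-labelled and Pam3CSK4-labelled libraries, 13 of 86 members were higher and 24 lower with TMM, against 34.7% and 36.8% of all tested genes. With library size none was higher and 66 were lower, against 21.2% and 55.7% of all genes. With the length and GC offset 9 were higher and 37 lower, against 35.1% and 37.8%. All 24 lower members stayed lower with library size, which moves every gene downwards, and with the length and GC offset, which lowers the median of the members. Of the 13 higher ones, 4 were lower and 9 not called with library size, and 8 stayed higher with the length and GC offset. The median of the members was 0.013 with TMM and -0.26 with library size, beside -0.018 and -0.29 for all genes. Ndufaf7 was again the 1 member called at 2-fold or more, against 23% of all genes. At an unadjusted p under 0.05 the TMM counts were 14 and 26, against 4074 and 4339 of all 11469 tested genes. This comparison shares the Pam3CSK4-labelled libraries with the one above, so the values stand side by side and are not independent.

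By complex, with TMM, 3 subunits of complex I were higher and 13 lower, of complex II none and 3, of complex III 4 and 1, of complex IV 5 and none, and of complex V 1 and 3. With library size 29 subunits of complex I, 4 of complex II, 6 of complex III, 8 of complex IV and 15 of complex V were lower. Among all tested genes 34.7% were higher and 36.8% lower with TMM, and 55.7% were lower with library size. The share of complex I lower with TMM was near that of all genes. Ndufaf7 was 3.53-fold lower in the 3SL-labelled libraries (log2 difference -1.82 ± 0.163, SE; adjusted p = 9.48e-11). Atp5s was lower by 0.91 ± 0.201 (SE; adjusted p = 0.000237). Among subunits Ndufa12 was lowest (-0.43 ± 0.0934, SE; adjusted p = 0.000186), with 17.7, 21.1 and 23.9 CPM against 30.2, 27.5 and 28.1 CPM. Ndufb10 was lower by 0.37 ± 0.0649 (SE; adjusted p = 1.12e-05) and Sdha by 0.29 ± 0.0379 (SE; adjusted p = 1.02e-07). Cox5a was highest, at 0.36 ± 0.0431 (SE; adjusted p = 2.83e-08) with TMM and 0.085 ± 0.0422 (SE; adjusted p = 0.0697) with library size. Uqcr10, a small subunit of complex III, was lower (-0.21, adjusted p = 0.00214), as was Atp5g2 (-0.32, adjusted p = 0.0014). Atp5b (0.23, adjusted p = 1.68e-07) was higher with TMM and not called with library size (-0.045). The lowest complex IV subunit, Cox7b, was at -0.0071 (adjusted p = 0.915), Sdhc at -0.0029 (adjusted p = 0.96), and Ndufaf5 was the highest assembly factor at 0.28 (adjusted p = 0.0728). AA467197, the Ndufa4 paralogue, was 24.7-fold higher (log2 difference 4.63 ± 0.131, SE; adjusted p = 5.15e-22).

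Some calls of this comparison were marginal and were lost with fewer libraries. Sdhd, the anchor of complex II, was lower by 0.12 (adjusted p = 0.0168) and was not called without D3 (-0.092) or without A2plus (-0.10). The calls of Uqcrb (0.17), Uqcrfs1 (0.16) and Cox6a1 (0.13) were each lost without 1 or 2 of the libraries. They were lost for Uqcrb without D1 (0.14) or B2plus (0.14), for Uqcrfs1 without D2 (0.14) or B2plus (0.11), and for Cox6a1 without D3 (0.099). Uqcrc1 (0.094, adjusted p = 0.0404) lost its call on leaving out A2 (0.094), D1 (0.093), D2 (0.098), D3 (0.088), A2plus (0.096), B2plus (0.10) or C2plus (0.091).

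Between the 3SL-labelled and untreated-labelled libraries, none of the 86 members was higher and 1 was lower with TMM, against 3.83% and 5.11% of all tested genes. With library size the counts were 0 and 1, against 6.86% and 3.54%, and with the length and GC offset 0 and 0, against 3.78% and 5.71%. DESeq2 likewise called none higher, and at an unadjusted p under 0.05 edgeR gave none higher and 14 lower with TMM. At that unadjusted p, 1162 of all 11469 tested genes were higher and 1275 lower. No member passed 2-fold, as did 0.174% of all genes. The 1 member was Atp5k, the e subunit of ATP synthase, which takes part in joining the enzyme into dimers. Atp5k (chromosome 5, 108433244 to 108434448) stood at 49.6, 49.4 and 54.4 CPM in the 3SL-labelled, 62.9, 62.4 and 60.0 CPM in the untreated-labelled and 58.0, 62.0 and 56.6 CPM in the Pam3CSK4-labelled libraries. The 3SL-labelled libraries were below all others. The log2 difference was -0.27 ± 0.0573 (SE; adjusted p = 0.00184) with TMM, -0.24 ± 0.0573 (SE; adjusted p = 0.00699) with library size and -0.17 (adjusted p = 0.0798) with the length and GC offset. The count of lower members was 3 without C2 or without B2plus and 2 without C2plus.

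The remaining members lay close to 0 in this comparison, from -0.33 for Ndufaf7 (adjusted p = 0.31) to 0.26 for Ndufaf6. With TMM 67 of 86 were below 0 (median -0.056), but the median was -0.017 with library size and 0.018 with the length and GC offset. Among all tested genes 5785 of 11469 were below 0 with TMM. Their medians were -0.0012 with TMM, 0.038 with library size and -0.0001 with the offset. Among subunits whose log2 CPM averaged 2 or more, the extremes within complexes were Ndufs3 (0.10) and Ndufb4 (-0.27) for complex I, Sdhc (0.041) and Sdhd (-0.075) for complex II, Uqcrc2 (0.0025) and Uqcrq (-0.13) for complex III, Cox6c (0.023) and Cox7a2 (-0.13) for complex IV, and Atp5d (0.029) above Atp5k for complex V. Cox7a1, a muscle isoform of complex IV below that level, was at 0.22 (adjusted p = 0.643). Apart from Atp5k none of these passed the test. Sdha stood at -0.069 (adjusted p = 0.305), Cox5a at -0.059 (adjusted p = 0.455), Atp5b at -0.061 (adjusted p = 0.243) and Ndufb10 at 0.014 (adjusted p = 0.935). AA467197, the Ndufa4 paralogue, was lower by 0.64 ± 0.0708 (SE; adjusted p = 3.28e-07) with TMM and by 0.60 with library size. With TMM, 1 of 17 complex IV assembly factors and 2 of 11 mitochondrially encoded messenger RNAs were lower too, against 5.11% of all tested genes.

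**Figure D5:**
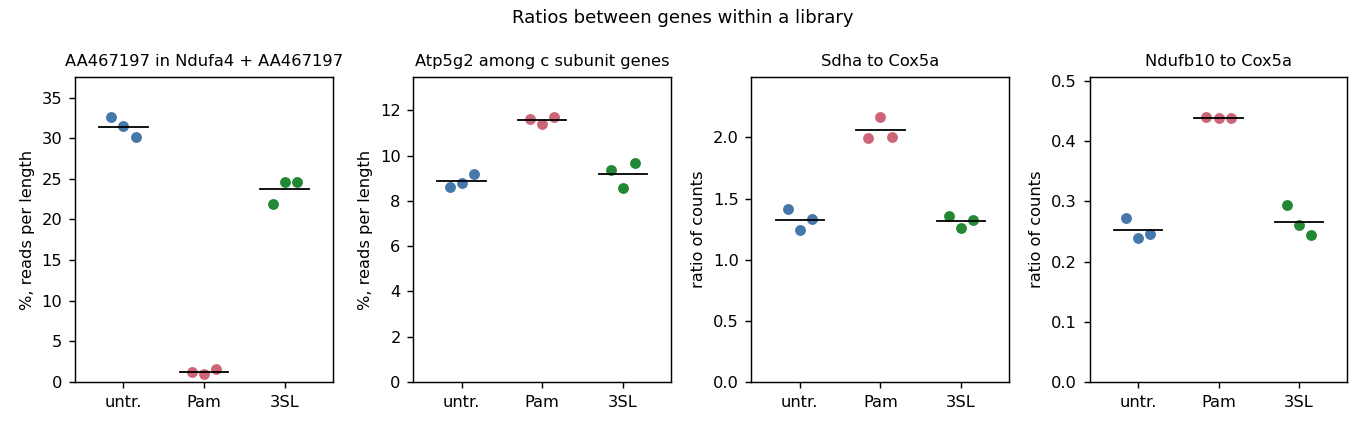
Ratios between genes within each library, which no scaling factor changes: AA467197 as a percent of Ndufa4 plus AA467197 and Atp5g2 as a percent of the 3 c subunit genes (both reads per length), and counts of Sdha or Ndufb10 per count of Cox5a; points are libraries and lines group means, and axes start at 0. AA467197 falls from 31.4% in the untreated-labelled to 1.28% in the Pam3CSK4-labelled libraries, and the other 3 ratios are higher in the Pam3CSK4-labelled libraries than in the rest.

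Other genes of the pathway were counted from lists drawn up outside the name rule. Between the Pam3CSK4-labelled and untreated-labelled libraries with TMM, 4 of 7 tested further assembly factors of complex I were higher and none lower, and 7 were higher with library size. Beside these and the next counts, 39% of all tested genes were higher and 35.9% lower with TMM, and 60% and 20.8% with library size, and nothing particular to a list is read from so few genes. Tmem126b, which takes part in an early assembly intermediate of complex I, stood at 51.4, 50.4 and 48.9 CPM against 17.6, 18.4 and 19.1 CPM (log2 difference 1.46 ± 0.0675, SE; adjusted p = 4.21e-17). For complex III 2 of 5 were higher and 1 lower (4 and 1 with library size), with Bcs1l, which inserts the Rieske protein, higher by 0.86 (adjusted p = 1.01e-06) and Ttc19, which clears its fragments, lower by 1.05 (adjusted p = 1.57e-10). For complex IV 3 of 17 were higher and 5 lower, while library size gave 9 and 1 and the length and GC offset 6 and 4, with Coa5 lower by 0.79 (adjusted p = 2.34e-17) and by 0.48 with library size. For complex II 1 of 4 was higher and 1 lower (3 and none with library size). Of 4 assembly and inhibitor genes of ATP synthase 3 were higher (4 with library size), including Atpaf1, which binds the beta subunit (0.82, adjusted p = 1.77e-05).

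Of 11 tested messenger RNAs encoded in mitochondrial DNA, 7 were lower and none higher with TMM (median -0.087), and 7 were higher and none lower with library size (median 0.22) and 4 and none with the length and GC offset, so that their direction turned with the scaling as it did for complexes III, IV and V. Cycs, which encodes cytochrome c, was lower by 0.34 ± 0.0723 (SE; adjusted p = 0.000134) with TMM and at -0.027 (adjusted p = 0.737) with library size. Cyc1, the cytochrome subunit of complex III, was at 0.017 (adjusted p = 0.779) with TMM and 0.33 with library size. Of 10 tested regulators of mitochondrial biogenesis 3 were higher and 4 lower with TMM, and 8 and 1 with library size. Esrra, a nuclear receptor that drives respiratory genes, stood at 36.5, 35.6 and 40.1 CPM in the Pam3CSK4-labelled and 68.0, 71.1 and 67.3 CPM in the untreated-labelled libraries, and was lower under both scalings (-0.89 and -0.58). Ppargc1b, a coactivator of such receptors, stood at 1.999, 2.925 and 3.589 CPM against 0.506, 0.646 and 0.742 CPM (log2 difference 2.18 ± 0.321, SE; adjusted p = 8.22e-07). Tfam, which packages and transcribes mitochondrial DNA, was higher by 0.37 (adjusted p = 5.38e-05) with TMM. Between the 3SL-labelled and untreated-labelled libraries, no listed regulator was called with TMM, and of the mitochondrially encoded messenger RNAs 2 were lower.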

How the data were processed

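Raw counts per gene for 9 libraries of bone marrow-derived macrophages, 3 per labelled group, were used as deposited by the authors in 1 table. The submitters' processing notes name HISAT2 2.1.0, featureCounts and Subread without roles, and the build hg38, although the table's identifiers are mouse Ensembl genes; the build behind the counts is therefore not settled, and annotation and strand setting are not given in the sources used here. Another 15 columns of other samples were not used. Of 22001 identifiers, 21909 matched a symbol. Coordinates and exon lengths are from GENCODE M21 on GRCm38.

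The test used edgeR 4.0.16 under R 4.3.3: filterByExpr by group kept 11469 genes (52.1%), TMM factors scaled the libraries (0.916 to 0.927 untreated-labelled, 1.14 to 1.15 Pam3CSK4-labelled, 0.944 to 0.953 3SL-labelled), and glmQLFit and glmQLFTest took the 9 libraries together with a mean for each group. Benjamini-Hochberg adjustment ran over every tested gene, and a gene was called at an adjusted p under 0.05, whatever its fold. The common biological coefficient of variation was 0.0365. The same fit was run on library sizes alone. Alternatives were DESeq2 1.42.0, its size factors in edgeR, no filter, only the 2 groups compared, an offset for gene length and GC content, each library left out, and a block for the letter. The TMM fit was also run on simulated counts with known changes, as many upwards as downwards. Such balanced changes do not test the choice of scaling. Standard errors were derived from the quasi-likelihood statistic.

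Members named were, per comparison, the highest and lowest tested subunit of each complex and the highest and lowest Ndufaf factor (mean log2 CPM of at least 2 for subunits), plus a fixed set of core, isoform and c subunit genes; others were named after their values were seen, and 1 gene that the rule names is not reported here. The members and lists were chosen with earlier results of these data known. Exons of 24 members overlap another gene of the table, and those of 32 overlap some annotated gene, with Cox5a, Ndufs1, Ndufs3 and Uqcrb among them. Many subunit genes also have processed pseudogenes. The counting of such reads is not described in those sources. The reads have no molecular identifiers, so the floor given for a count of 0 is one of counting error.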

Additional observations from a re-analysis of the deposited data

How the results depend on the processing

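The main dependence was on scaling. For the Pam3CSK4-labelled against the untreated-labelled libraries, library size alone gave 67 members higher and 1 lower in place of 20 and 31, and the length and GC offset 41 and 9. Log2 differences that turned with library size were those of the medians of complexes III 0.21, IV 0.13 and V 0.24, and of Atp5a1 0.22, Atp5b 0.022, Atp5g1 0.26, Atp5g3 0.15, Cox4i1 0.15, Cox6a1 0.12, Cox7a2 0.11, Cox7a2l 0.0046, Cox8a 0.18, Ndufa4 0.22, Ndufaf8 0.058, Uqcrb 0.077, Uqcrc1 0.22 and Uqcrfs1 0.11. With the offset they were the medians of complexes III 0.063, IV 0.021 and V 0.084, and Atp5g3 0.029, Cox4i1 0.021, Cox6a1 0.015, Cox8a 0.099, Ndufa4 0.23 and Uqcrb 0.10. For the 3SL-labelled against the Pam3CSK4-labelled libraries, library size gave 0 higher and 66 lower in place of 13 and 24, the offset 37 lower, and no filter on low counts 8 higher. Turned with library size were the medians of complexes III -0.20, IV -0.15 and V -0.24, and Atp5a1 -0.22, Atp5b -0.045, Atp5g3 -0.21, Cox4i1 -0.22, Cox6a1 -0.14, Cox7a2 -0.20, Cox7a2l -0.0054, Cox8a -0.27, Ndufa4 -0.27, Ndufv1 -0.22, Uqcrb -0.11, Uqcrc1 -0.18 and Uqcrfs1 -0.11. Turned with the offset were the medians of complexes III -0.0061 and V -0.0695, and Cox4i1 -0.074, Cox8a -0.15, Ndufa4 -0.19 and Uqcrb -0.042. Between 3SL-labelled and untreated-labelled libraries, members lower were 2 without the filter and 0 with the offset in place of 1, and the medians turned with the offset were complexes I 0.018, II 0.0071, III 0.021, IV 0.017 and V 0.0037. The cause was not tested.

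Leaving out each library gave 16 to 20 members higher and 18 to 36 lower (18 without B2) in the first comparison, 9 to 14 and 21 to 25 in the next, and 0 and 1 to 3 in the last. Of the named genes' differences with a library left out, 700 kept direction and side of the threshold, 22 lost their call and 7 gained one. Without B2plus the median of complex I between 3SL-labelled and untreated-labelled libraries was -0.11 and that of complex V -0.11. DESeq2 gave 15 higher and 25 lower, 11 and 20, and 0 and 1. Untreated-labelled and 3SL-labelled libraries of the same letter showed no shared deviation: their deviations correlated at -0.017, 0.042 and 0.008 across genes. Those of different letters correlated at -0.033 to 0.023. Whether a letter marks a shared mouse or culture cannot be told from these values, which may be mostly counting error. With a replicate block for the letter, 0 members were higher and 1 lower, as without it, and none of the 29 named differences changed its call. The filter on low counts left 7 isoforms of complex IV untested, with 0 to 103 counts over all libraries.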
